A study of Homo sapiens with 5 samples.

Results

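The IL-8 library was compared with the IL-6 library, gene by gene, to find which genes and functions told apart HT1080 cells given only IL-8 from HT1080 cells given only IL-6. HT1080 is a human fibrosarcoma line. In both cultures the cells were embedded at 10 cells per cubic mm in type I collagen gel at 2 mg per ml for 24 h, and recombinant IL-6 or recombinant IL-8 was added. The same line was sequenced without added cytokine at 10 cells per cubic mm (LD), with IL-6 and IL-8 together at a ratio of 5 to 2 (RM), also at 10 cells per cubic mm, and without added cytokine at 50 cells per cubic mm (HD). Each of the 5 conditions was 1 library from 1 experiment, so no difference below has a replicate check and no p-value is given. The study's methods describe cytokines added singly or together at the levels found in gels of 50 cells per cubic mm, and no dose as a number is given here.

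A gene was compared when it had at least 10 reads over the IL-6 and IL-8 libraries together, with the ribosomal entry RNA5-8S5 left out. This kept 10290 of the 27189 genes in the files, or 37.8%. Read counts were divided by a size factor for each library (1.12 for IL-6 and 0.894 for IL-8, the median ratio to the geometric mean of the pair), and the quotient is called scaled reads. A gene was called higher in a library when its scaled reads were at least 2-fold those of the other library, with 0.5 scaled reads added to both, and when the exact 95% Clopper-Pearson interval of the ratio excluded 1. That interval comes from how the reads of the gene split between the 2 libraries and covers counting error only. It does not cover variation between cultures, nor the amplification of the cDNA pool, which had no molecular identifiers.

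IL-6 binds its receptor IL6R, which pairs with the shared chain IL6ST (gp130) and activates JAK kinases and the transcription factor STAT3. STAT3 induces SOCS3, which shuts the receptor down again. IL-8, a chemokine, binds the G protein-coupled receptors CXCR1 and CXCR2, which act through inhibitory G proteins on phosphoinositide 3-kinase, phospholipase C and protein kinase C, and which are desensitized by receptor kinases and arrestins.

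Reads outside RNA5-8S5 numbered 1100967 in IL-6 and 1120609 in IL-8, and RNA5-8S5 took 78.4% and 79.6% of all reads. The other libraries held from 449661 (HD) to 1645539 (LD) reads outside RNA5-8S5. Set against the IL-6 and IL-8 pair, their size factors were 1.55 for LD, 0.943 for RM and 0.293 for HD. A read in HD thus stands for more scaled reads than a read in the other libraries, and raw reads do not rank HD against them. IL-6 had at least 1 read on 15079 genes and IL-8 on 13793. Among 19 listed mesenchymal markers 18 were compared, and 1 of them was called, SPARC, with VIM (vimentin) at 7318 reads in IL-6 and 4590 in IL-8. Of the markers of other cell types, 3 of 14 epithelial, 2 of 15 leukocyte and 2 of 10 endothelial genes had enough reads to be compared. The labels describe the cells as epithelial, whereas the epithelial markers EPCAM and KRT5 had no read in either library and the listed epithelial markers summed to 98.4 scaled reads in the IL-6 library and 124 in the IL-8 library. The endothelial markers VWF and CDH5 had no read either, and the leukocyte marker PTPRC had 1 and 2 reads. In these bulk libraries, fewer cells that express a gene and less RNA of it per cell cannot be told apart.

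IL-8 and IL-6 differed at many genes, in both directions, and so did every other pair among LD, IL-6, IL-8 and RM. With the read filter set on each pair, the share of genes called ran from 19.5% (IL-6 and LD) to 37.1% (IL-8 and RM). The pair of IL-6 and IL-8, at 27.4%, lay within that range. Its number of calls thus does not set it apart from other pairs of single libraries, and the part of the cytokine in it was not tested. In all, 1547 of the 10290 genes, or 15.0%, were called higher in IL-8, and 1277, or 12.4%, were called higher in IL-6. Genes called higher in IL-8 therefore made up 54.8% of the calls. The split depended on the scaling: with total reads outside RNA5-8S5 in place of the median ratio, the median log2 ratio of all genes moved to -0.36 and 32.1% of the calls were higher in IL-8. With TPM it moved to -0.38 and the share was 29%. Ratios below are relative to a median of all genes at 0, and which library held more of the called genes depended on that choice.

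The 2 sets of called genes differed in how well they were read. Genes called higher in IL-8 had a median of 78 reads over both libraries and those higher in IL-6 a median of 39, against 57 for all genes compared. Among the 368 genes with 1006 reads or more, 58 were called higher in IL-8 and 1 higher in IL-6, while among the 2669 genes with 20 to 49 reads 381 and 518 were. GC content moved with one direction. Of the 1845 genes with the lowest GC content, at most 42.5%, 6.34% were called higher in IL-8, and of the 1845 with the highest, at least 58.8%, 22.0% were. The share called higher in IL-6 lay between 10.9% and 13.2% in each of 5 such groups. The part of read number and GC content in the calls was not tested beyond the centring given under the processing alternatives. Shares set beside the lists below are over all genes compared unless a read range is named. They are thus not matched to the reads of a list. Well-read genes varied far more than counting allows, with a spread of the log2 ratio of 0.76 over the 1307 genes of 200 to 499 reads, where counting gave an SD of 0.17.

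**Figure D1:**
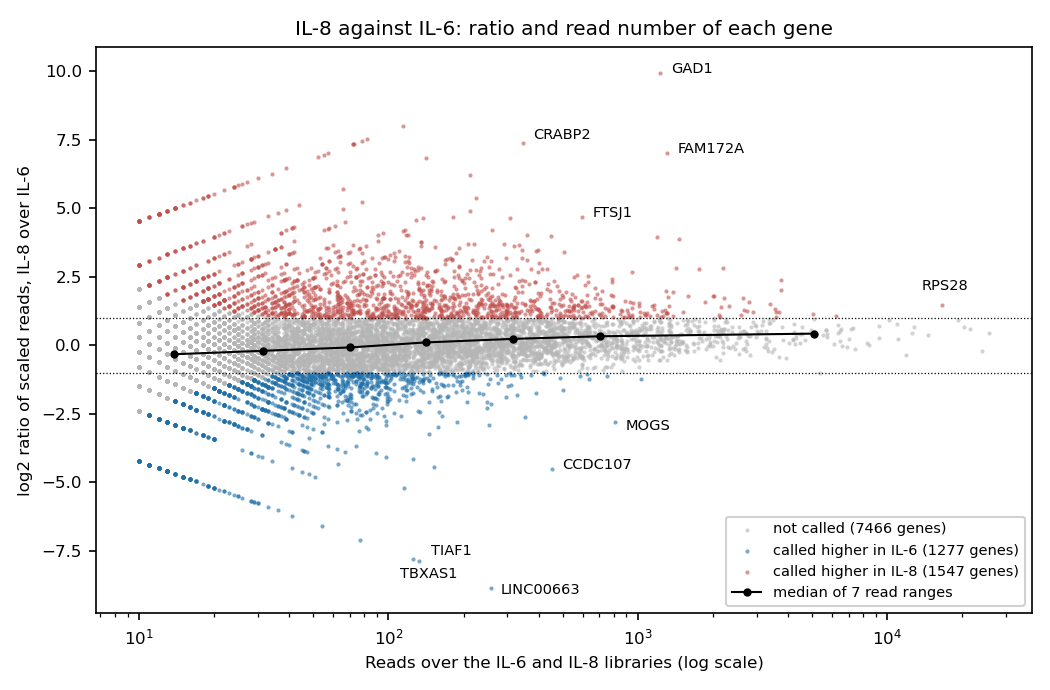
Log2 ratio of scaled reads, IL-8 over IL-6, of the 10290 genes compared (vertical axis) against the reads of the gene over both libraries (horizontal axis, log scale), with called genes in colour, the 2-fold limits dotted and the median of 7 read ranges as a black line. The median rises from -0.33 in genes of 10 to 19 reads to 0.42 in genes of 1006 reads or more, and the rows of points at the left are genes with 0 or few reads in 1 library.

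**Figure D2:**
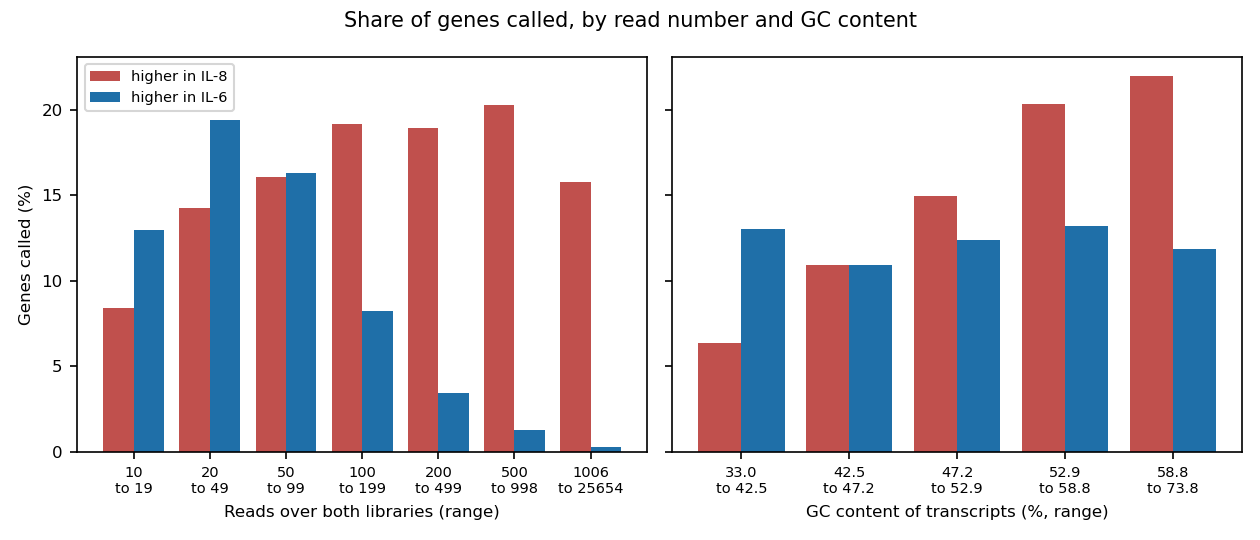
Share of genes called (%) by range of reads over both libraries (left) and by 5 equal groups of GC content (right), with IL-8 and IL-6 as bars. The share called higher in IL-6 falls to 0.272% in the genes with most reads, and the share called higher in IL-8 rises from 6.34% to 22.0% with GC content.

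LD lay nearer to IL-6 than to IL-8. Under the same rule, with the read filter set on each pair, 19.5% of 10970 genes were called between IL-6 and LD and 30.2% of 10622 between IL-8 and LD, 2 comparisons that share the LD library. The values that follow are for the 10290 genes, which were chosen and scaled without LD. Of the genes called higher in IL-8, LD was nearer to IL-6 at 74.5%, with a median log2 difference of 0.36 from IL-6 and -1.42 from IL-8. Of the genes called higher in IL-6, LD was nearer to IL-6 at 64.1%, with a median log2 difference of -0.59 from IL-6 and 1.2 from IL-8. LD was nearer to IL-6 at 60.1% of all genes compared. RM, the culture with both cytokines, was nearer to IL-6 at 66.4% of the genes called higher in IL-8 and at 53.9% of those called higher in IL-6, against 53.6% of all genes compared. Called genes were chosen for a gap between 2 single libraries. A library outside that choice can lie nearer the lower value for this reason alone. The 74.5% and 66.4% therefore do not by themselves decide that LD or RM lay nearer to IL-6.

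The genes farthest above IL-6 in the IL-8 library included enzymes, developmental factors and adaptors that had few or no reads in IL-6. GAD1, which makes the neurotransmitter GABA from glutamate, had 1229 reads in IL-8, 1 in IL-6, 0 in LD, 2 in RM and 5 in HD. Its ratio of 1536 had a counting interval from 275 to 60727. CRABP2, which carries retinoic acid to its nuclear receptor, had 343 reads in IL-8, 2 in IL-6, 34 in LD, 0 in RM and 29 in HD, a ratio of 214 (58.9 to 1777). GAD1 was high in the IL-8 library and in no other, and CRABP2 was highest there.

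FAM172A had 1293 reads in IL-8, 12 in IL-6, 28 in LD, 23 in RM and 0 in HD, and was 135-fold higher in IL-8 than in IL-6 (76.8 to 261). SH3PXD2B, an adaptor of the invasive cell protrusions called podosomes and invadopodia, had 210 reads in IL-8, 3 in IL-6, 11 in LD, 46 in RM and 9 in HD, a ratio of 87.5 (29.5 to 428). DAAM2, a formin that nucleates actin filaments, had 141 reads in IL-8 and 1 or 2 in each of IL-6, LD and RM. For these genes the IL-8 library stood apart from the other libraries at 10 cells per cubic mm, with RM between for SH3PXD2B. FTSJ1, a methyltransferase of transfer RNA, was the best read of the rest, with 571 reads in IL-8, 27 in IL-6, 69 in LD, 132 in RM and 0 in HD, a ratio of 26.4 (18.0 to 40.5).

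Several genes had no read in IL-6, where a count of 0 allows up to 3 reads or 2.68 scaled reads. CSDC2, an RNA-binding protein, had 72 reads in IL-8 and was at least 30.0-fold higher there. NXPH3, a ligand of neurexins, had 73 reads in IL-8, 20 in RM and 0 in LD. DAXX, a chaperone of histone H3.3, had 55 reads in IL-8, 2 in HD and 0 in IL-6, LD and RM. TIGD3 and ZNF775 and the unnamed transcript AK309441 had from 57 to 114 reads in IL-8 and at most 3 in every other library. CLIC1, an intracellular chloride channel protein, differed in kind: it had 78 reads in IL-8, 179 in LD and 244 in RM, and of the libraries at 10 cells per cubic mm only IL-6 had no read of it. AQP7P1, a pseudogene with 218 reads in IL-8 and 6 in IL-6, shares sequence with its relatives, and CLIC1 and DAXX lie in the MHC region, which some genome files hold in several copies, so these 3 counts are uncertain.

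In the other direction the largest gaps were in a long noncoding RNA, an eicosanoid enzyme and a set of less read genes. LINC00663 had 257 reads in IL-6, 0 in IL-8, 3 in LD, 5 in RM and 82 in HD, at least 68.5-fold higher in IL-6 than in IL-8. In scaled reads HD, at 280, lay above IL-6, at 230. TBXAS1, which makes thromboxane, had 125 reads in IL-6, 0 in IL-8, 1 in LD and 0 in RM, at least 33.3-fold higher in IL-6. TIAF1 had 132 reads in IL-6, 187 in LD and 143 in RM but 0 in IL-8, so there IL-8 was the library that stood apart. TIAF1 overlaps the gene MYO18A, and EIF3CL, with 77 reads in IL-6 and 0 in IL-8, is a near copy of EIF3C, so both counts are uncertain.

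MOGS, the glucosidase that starts the trimming of N-glycans, was the best read of the genes named here as higher in IL-6, with 729 reads in IL-6, 83 in IL-8, 108 in LD, 73 in RM and 9 in HD, 7.03-fold higher in IL-6 than in IL-8 (5.59 to 8.93). SUV420H2, a methyltransferase of histone H4, had 61 reads in IL-6 and 2 or 3 in each other library, a ratio to IL-8 of 24.4 (6.47 to 206). Both genes were high in the IL-6 library and low in the others. CCDC107 had 438 reads in IL-6, 15 in IL-8, 15 in LD and 81 in RM, a ratio of 23.4 (14 to 42.1).

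The rest of this group was low in IL-8 rather than high in IL-6 for some genes. NOL12, a nucleolar protein, had 147 reads in IL-6, 5 in IL-8, 284 in LD and 401 in RM. HYI had 64 reads in IL-6, 3 in IL-8, 44 in LD and 37 in RM, and FJX1 had 70, 4, 41 and 22. DDAH2, also in the MHC region, had 94 reads in IL-6, 4 in IL-8, 11 in LD and 126 in RM. RNF34, a ubiquitin ligase, had 135 reads in IL-6, 11 in IL-8, 32 in LD and 35 in RM, and AK126635 had 121, 5, 7 and 11. LD was nearer to the lower of the 2 cytokine libraries at 14 of the 15 genes of this ranking that were higher in IL-8. It was also nearer to the lower one at 10 of the 14 that were higher in IL-6. For RM the counts were 11 of 15 and 8 of 14. The genes were chosen for an extreme gap between 2 single libraries. A library left out of that choice can lie nearer the lower value for this reason alone. These counts therefore do not decide whether the IL-8 or the IL-6 culture stood apart. A Y-linked gene that the rule of this ranking picks is not named.

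**Figure D3:**
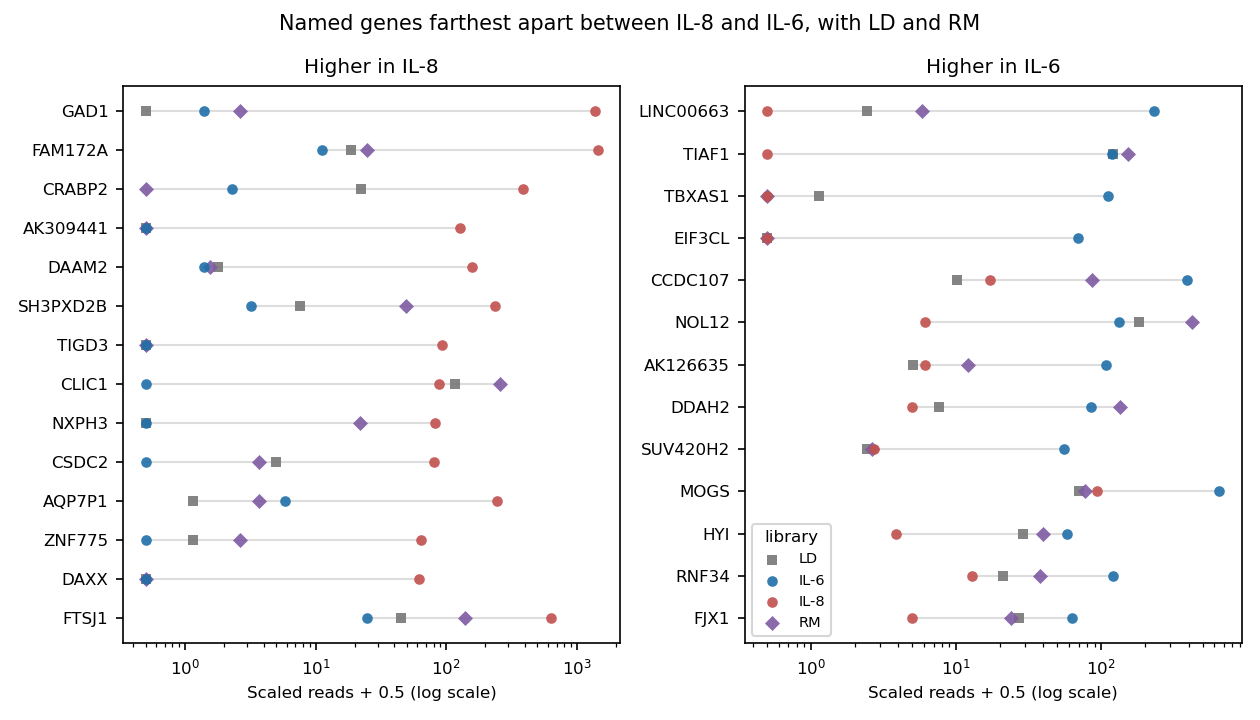
Scaled reads plus 0.5 (log scale) of the genes named in the text as higher in IL-8 (left) and as higher in IL-6 (right) in the 4 libraries at 10 cells per cubic mm. GAD1 and SUV420H2 stand apart in 1 library, while CLIC1 lies low in IL-6 only and TIAF1 low in IL-8 only.

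Genes of the IL-6 receptor pathway told the 2 cultures apart little. The added ligands were close to absent as transcripts, IL6 with 3 reads in IL-6 and 0 in IL-8, and IL8 with 0 reads in every library. IL6R had 5 reads in IL-6, 9 in IL-8, 9 in LD, 8 in RM and 84 in HD, a ratio of 2.25 with an interval that included 1 (0.677 to 8.55). IL6ST had 57 reads in IL-6, 29 in IL-8, 70 in LD and 48 in RM, and its interval for the excess in IL-6 also included 1 (1.57-fold, 0.989 to 2.55). At this depth no difference in either receptor chain was detectable.

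Of the kinases and STATs, JAK1 had 91 reads in IL-6 and 109 in IL-8, a ratio of 1.5 in favour of IL-8 (1.12 to 2.00), and JAK2 had 5 reads in each. STAT3 had 114 reads in IL-6, 57 in IL-8, 331 in LD, 203 in RM and 7 in HD. It was 1.60-fold higher in IL-6 than in IL-8 (1.15 to 2.24), under the 2-fold limit, and higher in LD than in either. SOCS3, the feedback inhibitor, had 19 reads in IL-6, 7 in IL-8, 23 in LD and 79 in RM, a ratio of 2.17 whose interval included 1 (0.874 to 6.11).

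In all, 23 of the 34 pathway genes were compared. Of these, 3 were called higher in IL-8 and 1 higher in IL-6, and the median log2 ratio was 0.16, against -0.0025 for all genes compared. TYK2, another JAK kinase, had 366 reads in IL-8, 128 in IL-6, 202 in LD and 69 in RM, 3.57-fold higher in IL-8 (2.91 to 4.41). IL11RA, the receptor of the related cytokine IL-11, had 52 reads in IL-8 and 23 in IL-6 (2.83-fold, 1.70 to 4.84), and SOCS7, of the SOCS family, had 28 and 14 (2.50-fold, 1.27 to 5.14). GAB1, a docking protein between cytokine receptors and the ERK pathway, had 22 reads in IL-6, 2 in IL-8, 5 in LD and 4 in RM, a ratio of 8.80 (2.16 to 77.2). The share called in either direction was near or below the background of all genes.

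Transcripts that STAT3 is known to induce leaned toward the IL-6 library by a small count of little-read genes. Of 43 such genes 24 were compared, with 5 called higher in IL-6, or 20.8% against 12.4% of all genes, and 2 called higher in IL-8, or 8.33% against 15.0%. The 5 had between 10 and 99 reads over both libraries. Of all genes in the 3 read ranges from 10 to 99, between 13.0% and 19.4% were called higher in IL-6. The median log2 ratio was -0.40, and under the 7 processing alternatives applied to lists from 0 to 2 were called higher in IL-8 and from 1 to 8 higher in IL-6. With centring by reads, 4 were called higher in IL-6. CEBPD, a transcription factor of the acute-phase response, had 50 reads in IL-6, 1 in each of IL-8, LD and RM, and 0 in HD, with a counting interval of the ratio to IL-8 from 6.86 to 1611. FOS had 13 reads in IL-6, 0 in IL-8, LD and RM, and 1 in HD, at least 3.47-fold higher in IL-6 than in IL-8. Among the libraries at 10 cells per cubic mm, CEBPD and FOS thus stood out in IL-6 alone. HD was too shallow to compare for FOS, since 3 reads there equal 10.2 scaled reads and FOS had 11.6 in IL-6.

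Other listed targets set the IL-6 library apart less clearly or not at all. MYC had 24 reads in IL-6, 3 in IL-8, 35 in LD and 24 in RM, a ratio of 6.40 (1.94 to 33.2), and was low in IL-8. IRF1, a transcription factor of the interferon response, had 28 reads in IL-6, 8 in IL-8, 16 in LD and 13 in RM (2.80-fold, 1.24 to 7.11). MCL1, which protects cells from apoptosis, had 53 reads in both IL-6 and LD, 19 in IL-8 and 27 in RM (2.23-fold, 1.30 to 3.99). FAS, a death receptor, was higher in IL-8, with 19 reads against 7 (3.39-fold, 1.37 to 9.55), as was BCL3, an NF-kB cofactor, with 18 against 8 (2.81-fold, 1.16 to 7.48). CCND1, the best read of the list, had 9682 reads in IL-6 and 11700 in IL-8, a log2 ratio of 0.60 that was not called. The acute-phase genes of liver, such as CRP, FGA and HP, had no read in either library.

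Immediate early genes, the transcription factors and feedback genes that rise within minutes of a stimulus, leaned the same way. Of 40 listed genes 29 were compared, with 7 called higher in IL-6 (24.1% against 12.4% of all genes) and 3 higher in IL-8 (10.3% against 15.0%). The median log2 ratio of -0.51 was the lowest of the 32 function lists. The 7 had between 10 and 99 reads over both libraries, and in the 3 read ranges there 13.0% to 19.4% of all genes were called higher in IL-6. FOS, MYC and MCL1 belong to this list too, so the leans of these lists are not separate. ATF3, a stress-induced factor, had 14 reads in IL-6, 0 in IL-8, 7 in LD and 3 in RM, at least 3.73-fold higher in IL-6. ZFP36, which destabilizes cytokine messenger RNAs, had 15 reads in IL-6, 2 in IL-8, 4 in LD and 12 in RM, a ratio of 6.0 (1.4 to 54.1). KLF2 had 62 reads in IL-6 and 20 in IL-8 (2.48-fold, 1.48 to 4.34), and IER5 had 57 and 20 (2.28-fold higher in IL-6).

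In the opposite direction, EGR1, a zinc finger factor of the same early response, had 34 reads in IL-8, 9 in IL-6, 17 in LD and 1 in each of RM and HD, 4.72-fold higher in IL-8 (2.22 to 11.2). BTG2, an antiproliferative gene, had 70 reads in IL-8, 36 in IL-6, 13 in LD and 9 in RM (2.43-fold, 1.60 to 3.74). DUSP4, a phosphatase of ERK, had 107 reads in IL-8, 66 in IL-6 and 270 in LD (2.03-fold, 1.48 to 2.80). The AP-1 partners that were better read stayed within the 2-fold limit, JUN with 350 reads in IL-6 and 193 in IL-8, and JUNB with 264 and 244. The called early genes thus went both ways. The 29 genes compared had a median of 82 reads over both libraries, and counts over the same 7 alternatives ran from 1 to 2 higher in IL-8 and from 3 to 11 higher in IL-6.

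**Figure D4:**
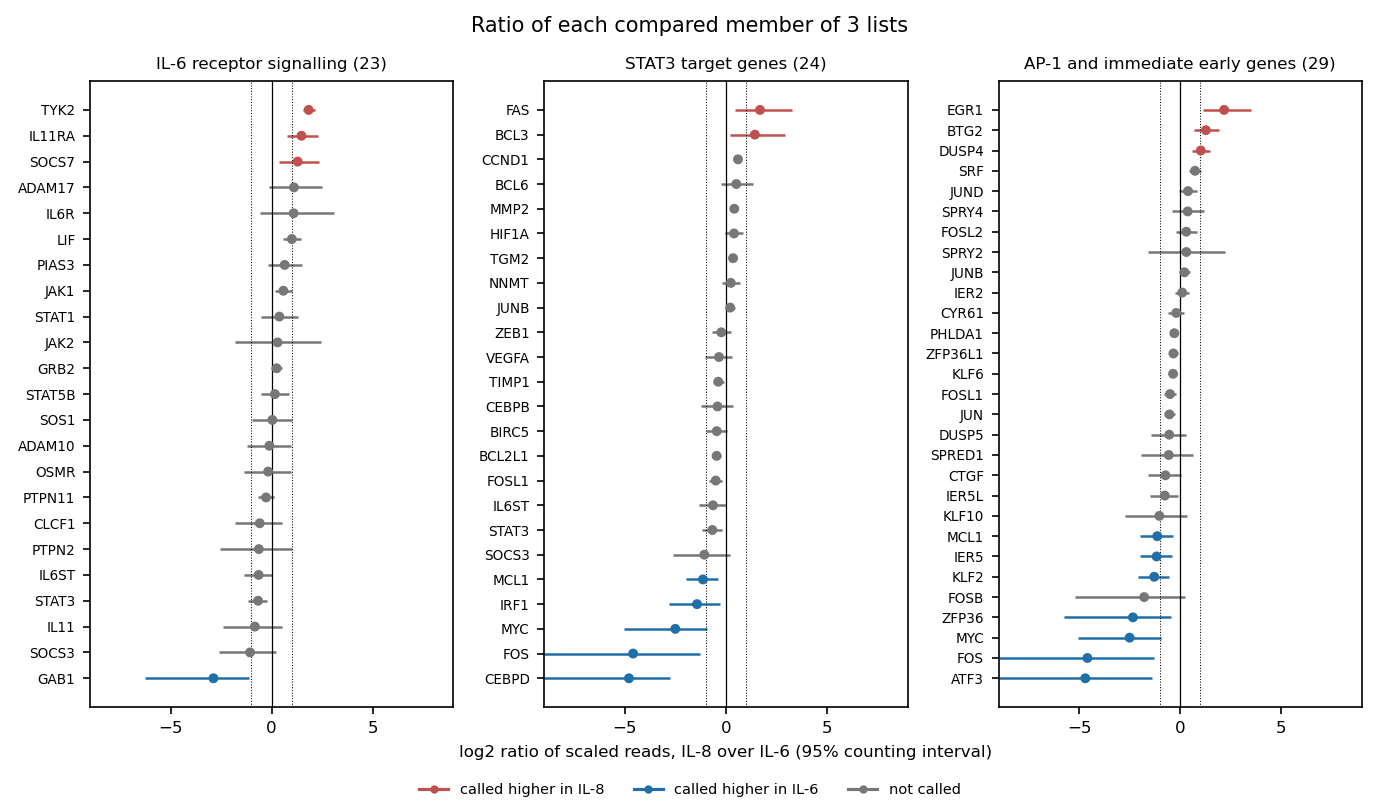
Log2 ratio of scaled reads, IL-8 over IL-6, of every compared gene of 3 lists, with its 95% counting interval as a line and the 2-fold limits dotted. In the IL-6 receptor pathway most intervals cross 0, while 5 of the 24 STAT3 targets and 7 of the 29 immediate early genes lie below the lower limit with intervals short of 0. Intervals that reach -9 run on beyond the axis.

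The genes of the IL-8 receptor pathway were mixed. CXCR1 had no read in either library and CXCR2 had 3 reads in IL-8, 0 in IL-6, 4 in RM and 8 in HD, too few to compare. Of 46 listed genes 38 were compared, with 4 called higher in IL-8 (10.5% against 15.0% of all genes) and 3 higher in IL-6 (7.89% against 12.4%), and the median log2 ratio was -0.14. GRK6, a kinase that desensitizes chemokine receptors, had 260 reads in IL-8, 35 in IL-6, 108 in LD, 79 in RM and 5 in HD, 9.29-fold higher in IL-8 (6.51 to 13.6). PRKCA, protein kinase C alpha, had 218 reads in IL-8, 44 in IL-6, 91 in LD and 32 in RM, 6.19-fold higher in IL-8 (4.46 to 8.77). GRK6 and PRKCA were higher in IL-8 than in any other library at 10 cells per cubic mm.

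The arrestins, which uncouple these receptors from G proteins, went apart. ARRB1 had 36 reads in IL-8, 14 in IL-6 and 85 in LD (3.21-fold higher in IL-8 than in IL-6, 1.69 to 6.45), while ARRB2 had 7 reads in IL-8, 25 in IL-6 and 123 in LD (2.86-fold higher in IL-6, 1.2 to 7.82). GRK5 was the other receptor kinase called higher in IL-8, with 16 reads against 6. Of phosphoinositide 3-kinase, the catalytic subunit PIK3CA had 31 reads in IL-6 and 9 in IL-8 (2.76-fold, 1.28 to 6.58). Its regulatory subunit PIK3R1 had 12 and 2, a ratio of 4.8 (1.07 to 44.2). The well-read G protein subunit GNAI2, with 1062 reads in IL-6 and 887 in IL-8, and the GTPase RAC1, with 1388 and 2102, were not called. Chemokine and cytokine genes themselves were mostly unread: 8 of 38 were compared and none was called in either direction, at this rule of counting intervals without a replicate.

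NF-kB genes, which many cytokine receptors engage, were called in both directions. Of 33 genes in the files 22 were compared, with 6 called higher in IL-8 (27.3% against 15.0%) and 3 higher in IL-6 (13.6% against 12.4%), while the median log2 ratio lay on the other side, at -0.23. Under the alternatives from 3 to 6 were called higher in IL-8 and from 3 to 8 higher in IL-6, so the larger count toward IL-8 depended on the setting. NFKBIB, an inhibitor of NF-kB, had 156 reads in IL-8, 46 in IL-6, 56 in LD and 29 in RM, 4.24-fold higher in IL-8 (3.03 to 6.03). TNFAIP3, the feedback inhibitor A20, had 19 reads in IL-8, 2 in IL-6, 3 in LD and 0 in RM, a ratio of 11.9 (2.86 to 105). RELA, the main activating subunit, had 352 reads in IL-8, 186 in IL-6 and 188 in LD (2.37-fold, 1.97 to 2.84). BCL3, NFKBIE and PTX3 were the other 3.

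On the IL-6 side, NFKB2, the precursor of the noncanonical subunit, had 90 reads in IL-6, 33 in IL-8, 41 in LD and 111 in RM (2.18-fold, 1.45 to 3.36). TRAF2, an adaptor of tumour necrosis factor receptors, had 60 reads in IL-6, 16 in IL-8, 4 in LD and 7 in RM (3.00-fold, 1.71 to 5.58), and IRF1 was described above. NFKBIA, another inhibitor of NF-kB, had 50 reads in IL-6 and 27 in IL-8 and was not called.

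Promoters are shown for 4 called genes of these lists, to set side by side genes that carry the same kind of motif and were called in opposite directions. Each run is the 250 bases before the RefSeq transcript start on GRCh38.p14, 5′ to 3′ on the strand of the gene, while the authors' reads were aligned to GRCh37, so the coordinates hold for the sequences alone. Capitals mark letters matching TTCNNNGAA, a STAT motif, in the first pair, and GGNNNTTCC, an NF-kB motif, in the second pair, searched on both strands. IRF1 lies on the minus strand at chr5:132490774-132491023, EGR1 on the plus strand at chr5:138465229-138465478, TNFAIP3 on the plus strand at chr6:137867009-137867258 and NFKB2 on the plus strand at chr10:102395455-102395704.
IRF1, called higher in IL-6: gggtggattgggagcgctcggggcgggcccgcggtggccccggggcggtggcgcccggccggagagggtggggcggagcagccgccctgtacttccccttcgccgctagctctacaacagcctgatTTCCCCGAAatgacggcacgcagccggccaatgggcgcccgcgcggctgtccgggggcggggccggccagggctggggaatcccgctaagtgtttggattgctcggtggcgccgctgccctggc
EGR1, called higher in IL-8: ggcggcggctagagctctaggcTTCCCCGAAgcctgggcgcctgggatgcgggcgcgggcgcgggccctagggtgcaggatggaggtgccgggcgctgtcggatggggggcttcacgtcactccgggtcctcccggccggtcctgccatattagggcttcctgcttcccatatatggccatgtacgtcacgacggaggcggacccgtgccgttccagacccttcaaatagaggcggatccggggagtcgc
TNFAIP3, called higher in IL-8: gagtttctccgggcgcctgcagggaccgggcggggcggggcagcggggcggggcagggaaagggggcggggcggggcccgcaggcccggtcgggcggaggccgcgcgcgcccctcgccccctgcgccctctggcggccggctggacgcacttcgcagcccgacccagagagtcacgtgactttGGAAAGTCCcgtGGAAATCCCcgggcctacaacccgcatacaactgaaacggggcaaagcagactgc
NFKB2, called higher in IL-6: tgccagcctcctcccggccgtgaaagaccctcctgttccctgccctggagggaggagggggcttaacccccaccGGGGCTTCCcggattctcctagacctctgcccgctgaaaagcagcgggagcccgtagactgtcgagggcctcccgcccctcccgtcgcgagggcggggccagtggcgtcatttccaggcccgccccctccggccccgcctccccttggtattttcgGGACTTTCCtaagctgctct

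The STAT motif began 124 bases before the start in IRF1, called higher in IL-6, and 228 bases before it in EGR1, called higher in IL-8, with the same letters TTCCCCGAA in both. The NF-kB motif began 67 and 55 bases before the start in TNFAIP3, called higher in IL-8, and 176 and 20 bases before it in NFKB2, called higher in IL-6. In all 35116 promoters of the table, each with 50 further bases after the start, 7.66% held the STAT motif and 20.1% the NF-kB motif, and the motifs can overlap each other. A comparison of motif shares between called genes is void, because a promoter was matched to only 7846 of the 10290 genes compared, or 76.2%. A match of letters is a description and shows no binding.

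Extracellular matrix genes were called in both directions. Of 40 compared, 7 were called higher in IL-8 (17.5%) and 4 higher in IL-6 (10.0%), with a median log2 ratio of -0.02. The 2 chains of type I collagen went opposite ways. COL1A2 had 151 reads in IL-8, 33 in IL-6, 42 in LD, 28 in RM and 4 in HD, 5.72-fold higher in IL-8 (3.90 to 8.61). COL1A1 had 41 reads in IL-8, 141 in IL-6, 153 in LD, 58 in RM and 2 in HD, 2.75-fold higher in IL-6 (1.93 to 4.0). LD sat beside IL-6 for both chains. The gel itself was rat-tail collagen protein and these are counts on human genes.

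LAMB3, a laminin beta chain, had 1873 reads in IL-8, 1013 in IL-6, 1818 in LD and 1255 in RM, 2.31-fold higher in IL-8 than in IL-6 (2.14 to 2.50). SPARC, a collagen-binding matrix protein, had 1636 reads in IL-8, 942 in IL-6, 1830 in LD and 1403 in RM (2.17-fold, 2.00 to 2.35). In both, LD was as high as IL-8 in reads but had a size factor of 1.55, which puts its scaled reads at 1172 for LAMB3 and 1180 for SPARC, between the 2 cytokine libraries. COL12A1 had 20 reads in IL-8 and 2 in IL-6, a ratio of 12.5 (3.04 to 110), and LOX, which cross-links collagen, had 41 and 19 (2.70-fold, 1.53 to 4.92). VCAN (versican) had 42 reads in IL-6 and 12 in IL-8 (2.80-fold, 1.45 to 5.84), and BGN (biglycan) had 13 and 2, a ratio of 5.20 (1.18 to 47.5). Of 20 matrix proteases and inhibitors compared, 2 were called each way, or 10% against 15.0% of all genes toward IL-8 and 12.4% toward IL-6. CTSD and MMP17 were higher in IL-8 and ADAM19 and ADAM9 higher in IL-6. CTSD, the lysosomal protease cathepsin D, had 3218 reads in IL-8 and 1828 in IL-6 (2.20-fold, 2.08 to 2.33).

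Genes of cell movement and the cytoskeleton were called at shares under those of all genes compared, which are not matched for reads. Of 49 movement and actin nucleation genes 4 were called higher in IL-8 (8.16%) and 3 higher in IL-6 (6.12%), with a median log2 ratio of 0.09. Of 38 contractile and actin-binding genes 3 (7.89%) and 1 (2.63%) were. ACTR2, a subunit of the Arp2/3 complex that branches actin, had 99 reads in IL-6, 46 in IL-8, 133 in LD and 68 in RM, 1.72-fold higher in IL-6 (1.2 to 2.50) and not called. WASF3, an activator of that complex, had 2 reads in IL-6 and 4 in IL-8, too few to compare. ARPC1A, another Arp2/3 subunit, had 503 reads in IL-8, 253 in IL-6 and 538 in LD, 2.49-fold higher in IL-8 (2.13 to 2.90).

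The other calls of the movement list were GSN, EZR and EVL toward IL-8 and SSH1, CFL2 and ABI1 toward IL-6. GSN (gelsolin), which severs filaments, had 710 reads in IL-8, 302 in IL-6 and 368 in LD (2.94-fold, 2.56 to 3.37), and EZR (ezrin), which links actin to the membrane, had 412 and 229 (2.25-fold, 1.91 to 2.65). SSH1, the phosphatase that activates cofilin, had 75 reads in IL-6 and 12 in IL-8 (5.00-fold, 2.70 to 10.1), and CFL2, a cofilin, had 32 and 5 (5.12-fold, 1.98 to 16.8). ABI1, a subunit of the WAVE complex, had 37 and 8 (3.70-fold, 1.70 to 9.2). CFL1, the main cofilin of these cells by reads, had 3355 reads in IL-6 and 2758 in IL-8 and was not called. Of the contractile genes, ACTA2 (smooth muscle actin) had 136 reads in IL-8, 33 in IL-6, 59 in LD and 18 in RM (5.15-fold, 3.50 to 7.78), and MYL6, a myosin light chain, had 1582 and 738 (2.68-fold, 2.45 to 2.93). SPTAN1 (spectrin) was called higher in IL-8 and PLS3 (plastin 3) higher in IL-6. Of 35 integrin and adhesion genes, PARVA and ITGA10 were called higher in IL-8 (5.71% against 15.0% of all genes). ALCAM, with 475 reads in IL-6 and 162 in IL-8, was called higher in IL-6 (2.35-fold, 1.96 to 2.82), a share of 2.86% against 12.4%.

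Cell cycle genes were called both ways. Of 46 replication genes 8 were called higher in IL-8 (17.4%) and 5 higher in IL-6 (10.9%), with a median log2 ratio of 0.15. LIG1, the replicative DNA ligase, had 371 reads in IL-8, 103 in IL-6, 250 in LD and 119 in RM (4.50-fold, 3.61 to 5.66). GINS3, of the replicative helicase, had 34 and 3, a ratio of 14.2 (4.46 to 72.1), and POLD3, of DNA polymerase delta, had 50 and 19 (3.29-fold, 1.91 to 5.91). MCM2, a helicase subunit, went the other way, with 180 reads in IL-6, 69 in IL-8, 226 in LD and 59 in RM (2.09-fold, 1.57 to 2.80). UNG, which removes uracil from DNA, had 19 reads in IL-6 and 1 in IL-8, a ratio of 15.2 (2.42 to 632), and CHAF1B had 13 and 1.

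Of 55 mitosis genes 6 were called higher in IL-8 (10.9%) and 7 higher in IL-6 (12.7%), with a median log2 ratio of -0.16. The kinase AURKB had 182 reads in IL-8, 73 in IL-6, 131 in LD and 6 in RM (3.12-fold, 2.36 to 4.15), the checkpoint protein BUB3 had 103 and 44 (2.93-fold, 2.04 to 4.27), and CDC25C had 18 and 2, a ratio of 11.2 (2.69 to 100). CCNB1, the mitotic cyclin, had 89 reads in IL-6, 24 in IL-8, 72 in LD and 45 in RM (2.97-fold, 1.87 to 4.87). PTTG1 (securin) had 41 and 9 (3.64-fold, 1.74 to 8.53) and NCAPH, of condensin, had 47 and 8 (4.70-fold, 2.20 to 11.5). MKI67, a marker of cycling cells, had 216 reads in IL-6 and 204 in IL-8 and was not called. The shares of both cell cycle lists were close to those of all genes.

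Replication-dependent histone genes had the highest median of the 32 function lists, a log2 ratio of 0.97 over 8 compared genes of 23 in the files. HIST1H4C had 200 reads in IL-8, 81 in IL-6, 138 in LD, 210 in RM and 66 in HD (3.09-fold, 2.37 to 4.05), HIST1H2BK had 122 and 57 (2.68-fold, 1.94 to 3.73) and HIST1H2BC had 27 and 12 (2.81-fold, 1.38 to 6.09). These 3 were the histone genes called higher in IL-8, 37.5% of the 8 compared against 15.0% of all genes. No histone gene was called higher in IL-6, where HIST1H1E had 40 reads against 23. Most messages of this family lack a poly(A) tail, the libraries were made from oligo-dT selected RNA, and the near-identical copies of the family make single counts uncertain.

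The p53 pathway and the BCL2 family gave calls on both arms of apoptosis control. Of 30 p53 pathway genes 6 were called higher in IL-8 (20% against 15.0% of all genes) and 1 higher in IL-6 (3.33% against 12.4%), with a median log2 ratio of 0.15. The list had a median of 132 reads over both libraries. Of all genes with 100 to 199 reads, 19.2% were called higher in IL-8 and 8.26% higher in IL-6, so the share toward IL-8 was near that of genes of like reads. Under the alternatives from 1 to 6 were called higher in IL-8 and from 0 to 6 higher in IL-6. TNFRSF10B, a death receptor, had 380 reads in IL-8, 174 in IL-6, 305 in LD and 168 in RM (2.73-fold, 2.28 to 3.29). BAX, which permeabilizes mitochondria, had 463 and 278 (2.08-fold, 1.79 to 2.42), BBC3 (PUMA), which releases BAX, had 259 and 153 (2.12-fold, 1.73 to 2.60), and PLK2 had 302 and 186. BTG2 and FAS, given above, are the other 2. CDKN1A (p21), the best known p53 target, had 964 reads in IL-8 and 757 in IL-6 and was not called.

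The calls of BAX, BBC3 and PLK2 lay close to the 2-fold limit and were lost under total-read scaling, TPM and the correction for read number. TP53INP1 was called higher in IL-6 on 10 reads against 1, a ratio of 8.0 (1.14 to 347). Of 15 BCL2 family genes compared, 3 were called each way (20%, against 15.0% of all genes toward IL-8 and 12.4% toward IL-6). This list had a median of 85 reads over both libraries. Of all genes with 50 to 99 reads, 16.1% were called higher in IL-8 and 16.3% higher in IL-6. BCL2L12 was called higher in IL-8 beside BAX and BBC3, and higher in IL-6 beside MCL1 were BAK1, with 63 reads against 18 (2.80-fold, 1.64 to 5.02), and BMF, with 17 against 1, a ratio of 13.6 (2.13 to 568).

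NRF2 targets, the antioxidant and detoxifying enzymes induced by the transcription factor NFE2L2 (NRF2), were split by gene. Of 31 compared, 6 were called higher in IL-6 (19.4% against 12.4%) and 1 higher in IL-8 (3.23% against 15.0%), yet the median log2 ratio was 0.11. NFE2L2 itself had 107 reads in IL-6, 40 in IL-8, 109 in LD, 52 in RM and 20 in HD (2.14-fold higher in IL-6, 1.48 to 3.16). GCLM, of glutathione synthesis, had 43 reads in both IL-6 and LD, 6 in IL-8 and 25 in RM (5.73-fold, 2.43 to 16.5). SRXN1 (sulfiredoxin) had 136 reads in IL-6, 26 in IL-8, 123 in LD and 38 in RM (4.18-fold, 2.74 to 6.64). These genes were lowest in reads in IL-8 among the libraries at 10 cells per cubic mm, with LD nearer to IL-6 than to IL-8 in scaled reads on the log2 scale.

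EPHX1, an epoxide hydrolase, had 69 reads in IL-6, 9 in IL-8, 102 in LD and 26 in RM (6.13-fold, 3.05 to 14), and ABCC1, an exporter of glutathione conjugates, had 84, 17, 123 and 43 (3.95-fold, 2.33 to 7.1). AKR1C2 had 22 reads in IL-6 and 0 in IL-8, and is nearly identical to AKR1C1, so its count is uncertain. The most read targets stayed within the 2-fold limit, HMOX1 with 2157 reads in IL-6 and 2299 in IL-8, FTH1 with 1998 and 1808, and NQO1 with 296 and 397. BLVRB, which reduces biliverdin, was the 1 gene called higher in IL-8, with 137 reads against 64 (2.68-fold, 1.97 to 3.66).

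Few cytosolic ribosomal protein genes were called. Of 76 compared, 1 was called higher in IL-8 (1.32%) and 4 higher in IL-6 (5.26%), with a median log2 ratio of -0.03, although their median of 1216 reads made small differences countable. The exception was RPS28, with 11397 reads in IL-8, 5157 in IL-6, 9469 in LD, 15375 in RM and 603 in HD, 2.76-fold higher in IL-8 (2.67 to 2.86). RPS23 had 360 reads in IL-6 and 126 in IL-8 (2.29-fold, 1.86 to 2.82), and RPS27, RPL37 and RPS29 were the other 3. Of all genes with 1006 reads or more, 15.8% were called higher in IL-8 and 0.272% higher in IL-6. Ribosomal protein genes have many processed pseudogenes, so single counts may be shared among copies.

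Nuclear genes of oxidative phosphorylation had 8 calls toward IL-8 and 2 toward IL-6 among 71 compared, shares of 11.3% and 2.82% that were both under the background, with a median log2 ratio of 0.05. The genes named for IL-8 encode subunits of complex I. NDUFS3 had 310 reads in IL-8, 78 in IL-6, 234 in LD and 60 in RM (4.97-fold, 3.86 to 6.45), NDUFA11 had 690 and 322 (2.68-fold, 2.34 to 3.07) and NDUFA2 had 536 and 248 (2.70-fold, 2.32 to 3.15). NDUFB4, with 25 reads in IL-6 and 6 in IL-8, and NDUFS1, with 53 and 19, were called higher in IL-6. Complex I genes were thus called in both directions. Of 24 glycolysis genes 4 were called higher in IL-8 (16.7% against 15.0% of all genes) and 2 higher in IL-6 (8.33% against 12.4%). Those higher in IL-8 were led by the lactate exporter SLC16A3 with 669 reads against 289 (2.89-fold, 2.52 to 3.33). Higher in IL-6 were the glucose transporter SLC2A1 with 61 against 24 (2.03-fold, 1.25 to 3.41) and PFKFB3 with 50 against 15 (2.67-fold, 1.47 to 5.11).

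**Figure D5:**
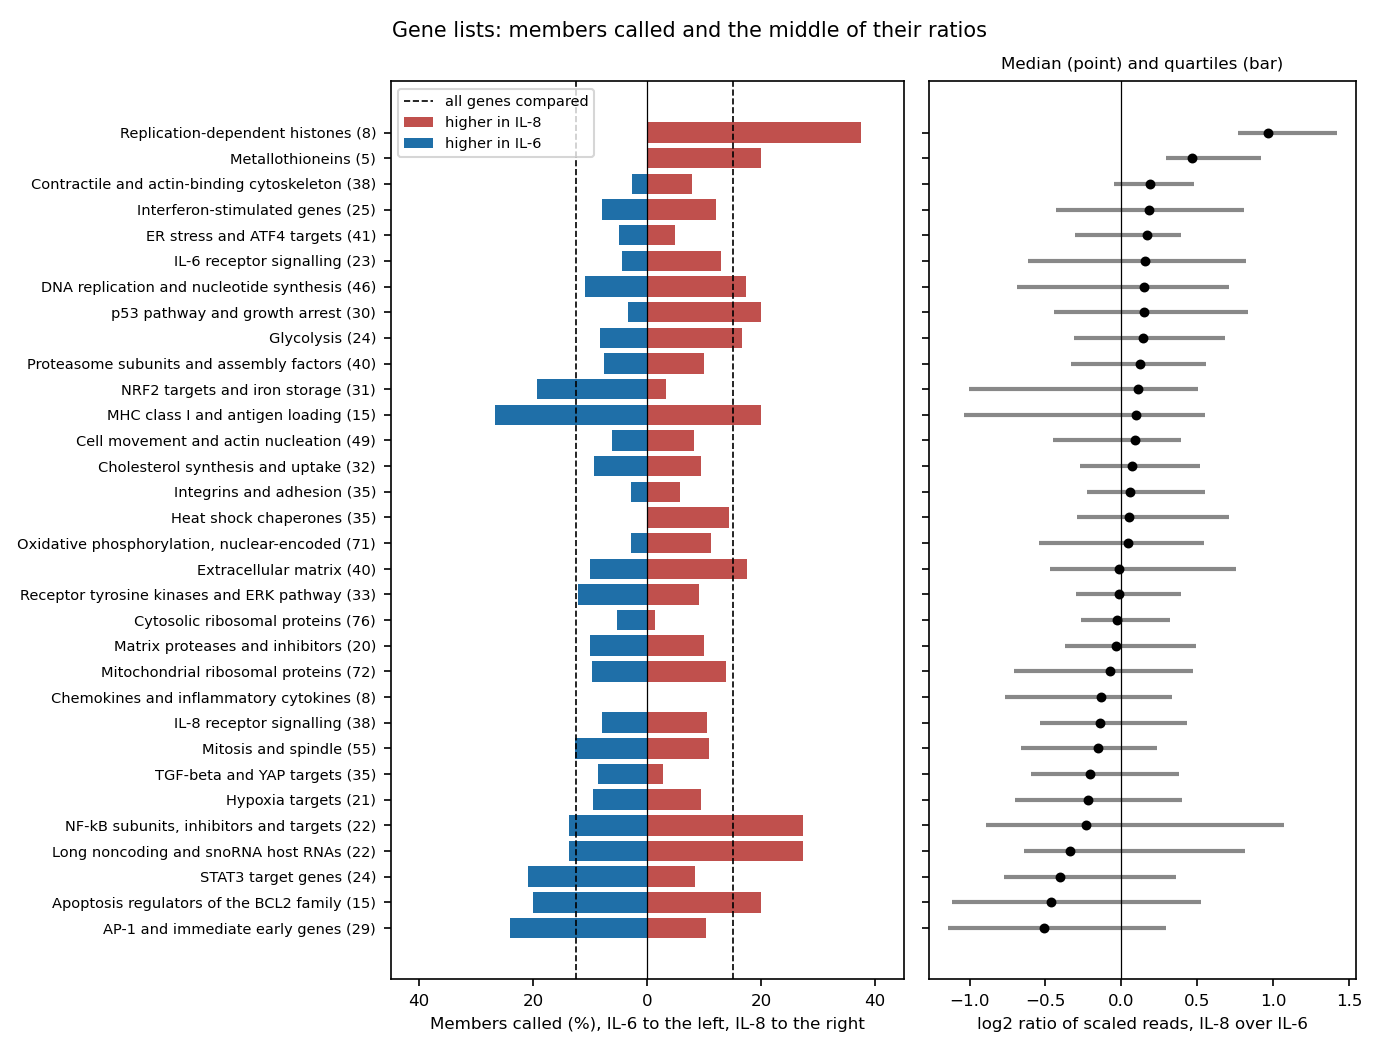
For each of 32 function lists (number of genes compared in brackets), the share of genes called higher in IL-8 (red, to the right) and in IL-6 (blue, to the left) in percent, beside the shares of all genes (dashed, 15.0% and 12.4%), and the median and quartiles of the log2 ratio. Histones have the highest median (0.97) and immediate early genes the lowest (-0.51), and 10 lists exceed the background share toward IL-8 and 8 toward IL-6.

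Over the 32 lists, 18 had more genes called higher in IL-8, 8 had more called higher in IL-6 and 6 had as many each way. Medians of the lists were recomputed under these 7 alternatives. A list median kept its side of the median of all genes under each of these 7 for 19 lists, 8 above it and 11 below, and changed side for 13. Histones, replication, the IL-6 receptor pathway and interferon-stimulated genes were among those that stayed above, and STAT3 targets, immediate early genes, the IL-8 receptor pathway, NF-kB genes, mitosis and the BCL2 family among those that stayed below. The p53 pathway, NRF2 targets, oxidative phosphorylation, glycolysis, extracellular matrix and cell movement were among those that changed side. These lists share genes and were read from the same 2 libraries, so they are not independent of each other.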

How the data were processed

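RNA of HT1080 cells was sequenced as 1 library for each of 5 conditions. RNA was selected with oligo-dT, its cDNA pool amplified with phi29 polymerase and libraries made with Nextera XT. Per the labels, the submitters' processing notes name CASAVA 1.4, FastQC, Bowtie2 2.3.1, RSEM 1.2.25 and the build GRCh37 (hg19). The values the authors deposited are the estimated count of reads per gene from RSEM, as whole numbers without normalization, and TPM values, corrected for transcript length and library total.

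RNA5-8S5 was removed, counts of IL-6 and IL-8 were scaled by their median ratio, and genes with at least 10 reads over both were called at 2-fold with a 95% counting interval excluding 1. Size factors of LD, RM and HD were set against the same pair. Of the symbols, 25 are listed as plain numbers, and none is named here. The 32 function lists and 4 marker lists, the rule for named genes and the comparison itself were chosen with earlier results of these data known. Named genes were the 15 per direction with at least 50 scaled reads whose interval lay farthest from 1, less 1 Y-linked gene and some genes not reported here, up to 3 called genes per direction of each list, the genes of the receptor pathways, and WASF3 and ACTR2. Further called genes of the lists, and uncalled examples such as VIM, JUN and RAC1, were picked after their values were seen. A count of 0 was read as up to 3 reads. GC content came from GENCODE 29 transcripts by symbol, with a value for 89.6% of genes. The calling rule was run on simulated counts with known changes. Those counts held counting error only, so the run does not show how calls fare under variation between cultures or from amplification. Intervals came from scipy 1.17.1 and tables from pandas 2.3.3 and numpy 2.4.6 under Python 3.11.15. TMM factors, an alternative only, came from edgeR 4.0.16 under R 4.3.3.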

Additional observations from a re-analysis of the deposited data

How the results depend on the processing

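The genes called higher in IL-8 and in IL-6 numbered 1547 and 1277, and were recounted under 9 alternatives chosen at the start and 3 chosen after seeing the data. Total reads outside RNA5-8S5 gave 1028 and 2171, TPM with a pseudocount of 1 and the fold threshold alone 1078 and 2638, a 4-fold limit 595 and 541, at least 10 reads in each library 893 and 655, and at least 100 reads over both, added later, 495 and 290. TMM, a trimmed median ratio, no filter, a pseudocount of 5, the fold threshold without the interval, and centring within 20 bins of reads or of GC content (the last 2 added later) kept both counts within 1.5 times. The cause was not tested, except that the 4-fold limit and both filters count fewer genes by construction. Of 179 named called genes, 178 were still called in the same direction with TMM, 165 with a pseudocount of 5 and 156 with centring by reads. Total reads kept 155, TPM kept 143, and the filter of 10 reads in each library kept 101 of 110. None changed direction, but these settings could hardly have produced a change. The genes were chosen as at least 2-fold apart, while total reads and TPM moved the median log2 ratio of all genes only to -0.36 and -0.38. The absence of reversed calls is therefore no check of the calls. GRK6, PRKCA, GAD1, CEBPD, COL1A1 and COL1A2 were still called under each of these settings that compared them, while MCL1, RELA, LAMB3, SPARC, ARPC1A, CTSD, BAX, BBC3, PLK2 and DUSP4 were each lost under at least 2. No paired analysis was possible because each group had 1 library, and no library could be left out for the same reason.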

Other observations

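Mitochondrial ribosome and proteasome genes were called in both directions. Of 72 mitochondrial ribosomal protein genes 10 were called higher in IL-8 (13.9% against 15.0% of all genes) and 7 higher in IL-6 (9.72% against 12.4%), led by MRPL38 with 403 reads in IL-8 and 139 in IL-6 (3.62-fold, 2.98 to 4.43) and, in the other direction, MRPL2 with 175 and 448 (2.05-fold higher in IL-6, 1.72 to 2.45). Of 40 proteasome genes 4 (10.0%) and 3 (7.5%) were called. Those higher in IL-8 were led by subunits of the regulatory particle, PSMD3 with 398 reads in IL-8 and 195 in IL-6 (2.55-fold, 2.14 to 3.04) and PSMD4 with 578 and 347, and those higher in IL-6 were PSMA2, PSMD6 and PSMC6. Of 35 heat shock chaperones 5 were called higher in IL-8, or 14.3% against 15.0% of all genes, and none higher in IL-6, where under the alternatives from 0 to 2 were. TRAP1, the mitochondrial HSP90, had 409 reads in IL-8, 149 in IL-6, 191 in LD and 735 in RM (3.43-fold, 2.84 to 4.17), HSPB8 had 64 and 18 (4.44-fold, 2.60 to 7.97) and AHSA1, a cochaperone of HSP90, had 262 and 124 (2.64-fold, 2.13 to 3.30). Of 41 ER stress and ATF4 targets 2 were called each way (4.88%), MANF and DNAJB11 higher in IL-8 and ATF3 and CHAC1 higher in IL-6.

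Receptors, lipid genes and antigen presentation held single genes with large contrasts. Shares given here stand against 15.0% of all genes called higher in IL-8 and 12.4% called higher in IL-6. NPC1, which exports cholesterol from lysosomes, had 18 reads in IL-8 and 64 in IL-6 (2.84-fold higher in IL-6, 1.66 to 5.10). Of 32 cholesterol genes 3 were called each way (9.375%). ERBB2 had 112 reads in IL-8 and 34 in IL-6 (4.12-fold, 2.78 to 6.24), and IGF1R had 27 and 107 (3.17-fold higher in IL-6, 2.06 to 5.03). The kinases of the ERK cascade were split, ARAF called higher in IL-8 and BRAF higher in IL-6. TIE1, an endothelial receptor, had 225 reads in IL-8, 33 in IL-6, 26 in LD and 8 in RM (8.52-fold, 5.90 to 12.7), while VWF and CDH5, defining endothelial genes, had no read in either library. TAPBPL, a peptide editor of MHC class I, had 244 reads in IL-8, 16 in IL-6, 32 in LD and 13 in RM (19.1-fold, 11.5 to 33.9), and TAPBP (tapasin) had 9 and 53 (4.71-fold higher in IL-6, 2.3 to 10.9). TAPBP lies in the MHC region, so its count is uncertain for the reason given for CLIC1 and DAXX. HLA-E was called higher in IL-8, and its count is uncertain because the family shares sequence and varies between people and genome files. Of 25 interferon-stimulated genes, IFI27 (90 reads in IL-8, 11 in IL-6, 10.2-fold, 5.45 to 21.2), PARP12 and PARP9 were called higher in IL-8 (12%), and EIF2AK2 and IRF1 higher in IL-6 (8%). Of 35 TGF-beta and YAP targets, TEAD3 was called higher in IL-8 (2.86%), and LATS2, SMAD4 and YAP1 higher in IL-6 (8.57%). Of 21 hypoxia targets, EGLN2 and LOX were called higher in IL-8 (9.52%), and PLOD1 and SLC2A1 higher in IL-6 (9.52%). SLC30A1 was the 1 called gene of the 5 compared in the metallothionein list (20%), with 23 reads in IL-8 and 11 in IL-6. Of 22 long noncoding and snoRNA host RNAs 6 were called higher in IL-8 (27.3%), among them LINC00152, SCARNA2 and RMRP. Another 3 were called higher in IL-6 (13.6%), SNHG15, SNHG12 and ZFAS1.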
